A study of Mus musculus with 12 samples.

Results

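The Mmp, Adamts and Timp genes encode the secreted and membrane-bound metalloproteinases that cut extracellular matrix, and the inhibitors that block them. They were taken as every non-control probe whose gene name in the files is Mmp, Adamts or Timp followed directly by a number. That gave 42 genes with 73 probes, of 27670 genes and 41174 probes in all, namely 21 Mmp, 17 Adamts and 4 Timp genes. Of these, 35 were well above background, as the authors' image software flags it, on at least 1 of 12 arrays (17 Mmp, 14 Adamts and 4 Timp genes), against 20968 of all genes, and 24 were on all 12. The 7 never well above background were Mmp8, Mmp12, Mmp20, Mmp21, Adamts13, Adamts15 and Adamts19. Adamts14, Adamts17, Mmp1b and Mmp27, which RefSeq also lists, were not analysed here.

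The arrays were 1-colour (Cy3) Agilent arrays of total RNA from neural progenitor cells of the 129/Ola mouse strain. In 10 cultures a retrovirus, built in the vector pMXs-IRESNeo, carried the open reading frame of a transcription factor: Crebzf, Esx1, Etv6, Gatad2b, Hmga2, Nfxl1, Pax6, Pdx1, Sox11 or Zfp451. An 11th virus-treated culture expressed EGFP, a fluorescent protein, and 1 culture was labelled mock. The virus dose was one at which about 95% of cells expressed the insert, G418 was added after 24 h to kill the rest, and cells were collected at 72 h. The sources used here do not say whether the mock culture met virus or G418. The series title speaks of interfering and non-interfering factors, and the sample labels do not say which are which. Each group is 1 array, so the values have no replicate error, no test across arrays was made and there is no p-value.

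Matrix metalloproteinases (MMPs) are zinc enzymes made as inactive precursors. They are sorted by what they cut and where they sit, as collagenases, gelatinases, stromelysins, a matrilysin and membrane-anchored members. The ADAMTS proteases are secreted relatives with thrombospondin repeats, which process procollagens and cut the large proteoglycans of cartilage and of the brain's matrix. TIMPs bind the active site of MMPs, and Timp3 also inhibits several ADAM and ADAMTS enzymes. In neural progenitors these genes are known for remodelling the niche matrix and for cell migration.

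A level here is the log2 of a probe's signal minus the log2 of the array's 75th percentile, so 0 is that percentile and levels of different probes are not comparable. For a gene with several probes the one with the highest mean was used. To be called on the array of a factor, a gene had to differ by 2-fold or more, in 1 direction, from EGFP and from mock alike, and to be well above background on the brighter side. Folds are against the mean of the 2 control arrays, which are the same for all 10 factors. Where the dimmer side was not well above background its level was set to its array's lowest well-above-background level if it was below that, and the fold is then given as a lower bound. The 75th percentile lay between 823.5 and 1026 signal units, the software flagged 62.5% to 69.1% of probes as well above background and none as saturated. Between EGFP and mock, the median absolute difference was 0.07 (log2) over genes on all 12 arrays and 0.11 over the members tested, and no member was 2-fold apart. Of 26 probes for the 10 introduced genes, 3 were highest on their own factor's array and 0 were 2-fold above every other array. Which of them lie in the inserted reading frame was not established, so they do not check the labels.

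The 12 arrays were far from evenly spaced. The Crebzf, Esx1, Pax6, Pdx1, Sox11 and Zfp451 arrays differed from one another by at least 2-fold at 152 to 1367 genes in 15 pairs. The other 6 arrays, both controls among them, differed at 285 to 791 genes in 15 pairs, and the 36 pairs with one of each differed at 3787 to 4955 genes. This division was read from the data and is no grouping of the study. Slide 1 held Pax6, Hmga2, EGFP and mock, slide 2 held Gatad2b, Etv6, Esx1 and Nfxl1, and slide 3 held Crebzf, Pdx1, Sox11 and Zfp451. For the slide 3 arrays, slide and factor cannot be told apart. The labelled cell type was checked against 10 markers. Nes, Sox2, Msi1, Vim, Prom1 and Notch1, which neural progenitors express, were well above background on all 12 arrays. So were the fibroblast collagens Col1a1 and Col1a2. Nes was called lower on Pax6 (2.85-fold), Esx1 (2.59-fold), Crebzf (2.14-fold), Sox11 (2.14-fold) and Zfp451 (2.19-fold). On Pdx1 Nes was 2.11-fold lower and missed the rule. Msi1 was called lower on Zfp451 (2.15-fold) and Sox1 on Crebzf (at least 2.16-fold). Sox2, Vim, Prom1, Notch1 and Hes5 were called on no array. Sox1 was well above background on 11 arrays and Hes5 on 10. Fabp7 was well above background on 5 arrays and on neither control, called higher on Crebzf (at least 2.67-fold), and Sox3 on none.

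Of the 35 members tested, 20 were called on at least 1 factor array and 15 on none. On the Pax6 array 13 members were higher and 4 lower, where 10.7% of all genes were higher and 6.39% lower. On the Esx1 array 11 were higher and 4 lower, with a background of 10.3% and 7.42%. The counts were 11 higher and 5 lower on Crebzf, against 9.82% and 6.28% of all genes. They were 11 and 5 on Pdx1, against 9.85% and 6.63%. Sox11 had 11 and 6, against 9.74% and 6.93%, and Zfp451 had 11 and 5, against 9.59% and 6.30%. So the higher members were 37.1% of those tested on Pax6 and 31.4% on each of the other 5, above the share of all genes in each case. The lower members were 11.4% to 17.1% of those tested, but that share rests on dim members. Of the 24 members well above background on all 12 arrays, 1 was lower on Pax6, 2 each on Esx1, Crebzf, Pdx1 and Zfp451 and 3 on Sox11, against 6.83% to 8.47% of the 16073 genes on all 12 arrays. In the same 24, 11 were higher on Pax6 and 9 on each of the other 5, against 9.22% to 10.5% of those genes.

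The remaining 4 factor arrays carried almost no calls. Hmga2 had 0 members higher and 1 lower (Adamts2), with 0.434% of all genes higher and 0.558% lower. Gatad2b had 1 higher (Mmp24) and 0 lower, with 0.644% and 1.0%. Etv6 had 0, with 1.04% and 0.835%, and Nfxl1 had 0, with 0.300% and 1.17%. The median difference of the members from the control mean was 0.55 (log2) on Pax6, 0.62 on Esx1, 0.33 on Crebzf, 0.48 on Pdx1, 0.40 on Sox11 and 0.44 on Zfp451. Over all genes the same medians lay between -0.20 and -0.08. On Hmga2, Gatad2b, Etv6 and Nfxl1 the members' medians were between -0.08 and 0.07, and those of all genes between -0.04 and 0.02.

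**Figure D1:**
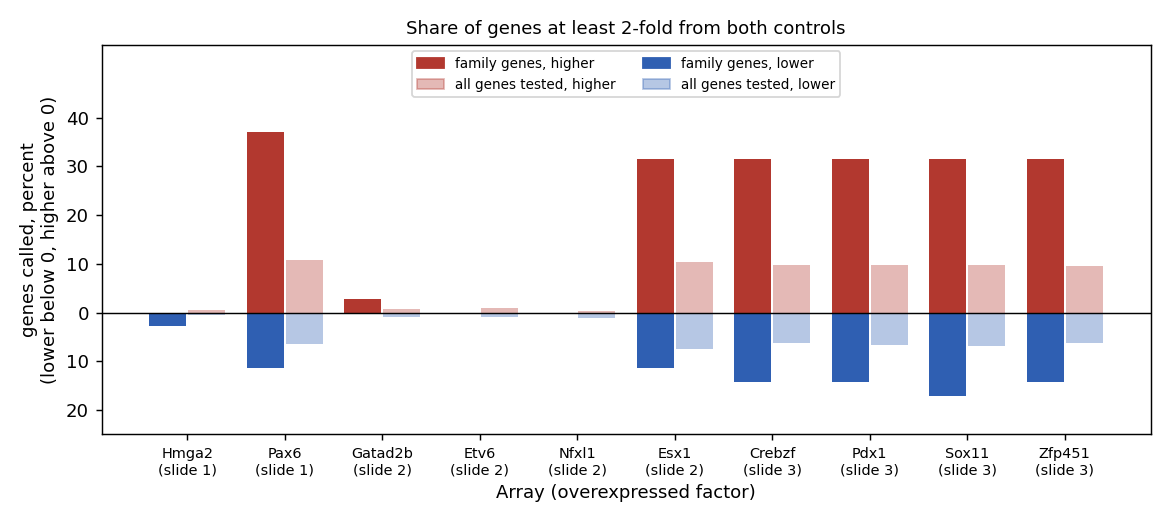
Share (percent) of the 35 tested members, dark bars, and of all 20968 genes tested, pale bars, called higher (above 0) or lower (below 0) than both controls on each of the 10 factor arrays. The Crebzf, Esx1, Pax6, Pdx1, Sox11 and Zfp451 arrays have 31.4% to 37.1% of members higher and 11.4% to 17.1% lower, and the other 4 have at most 1 member called.

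**Figure D2:**
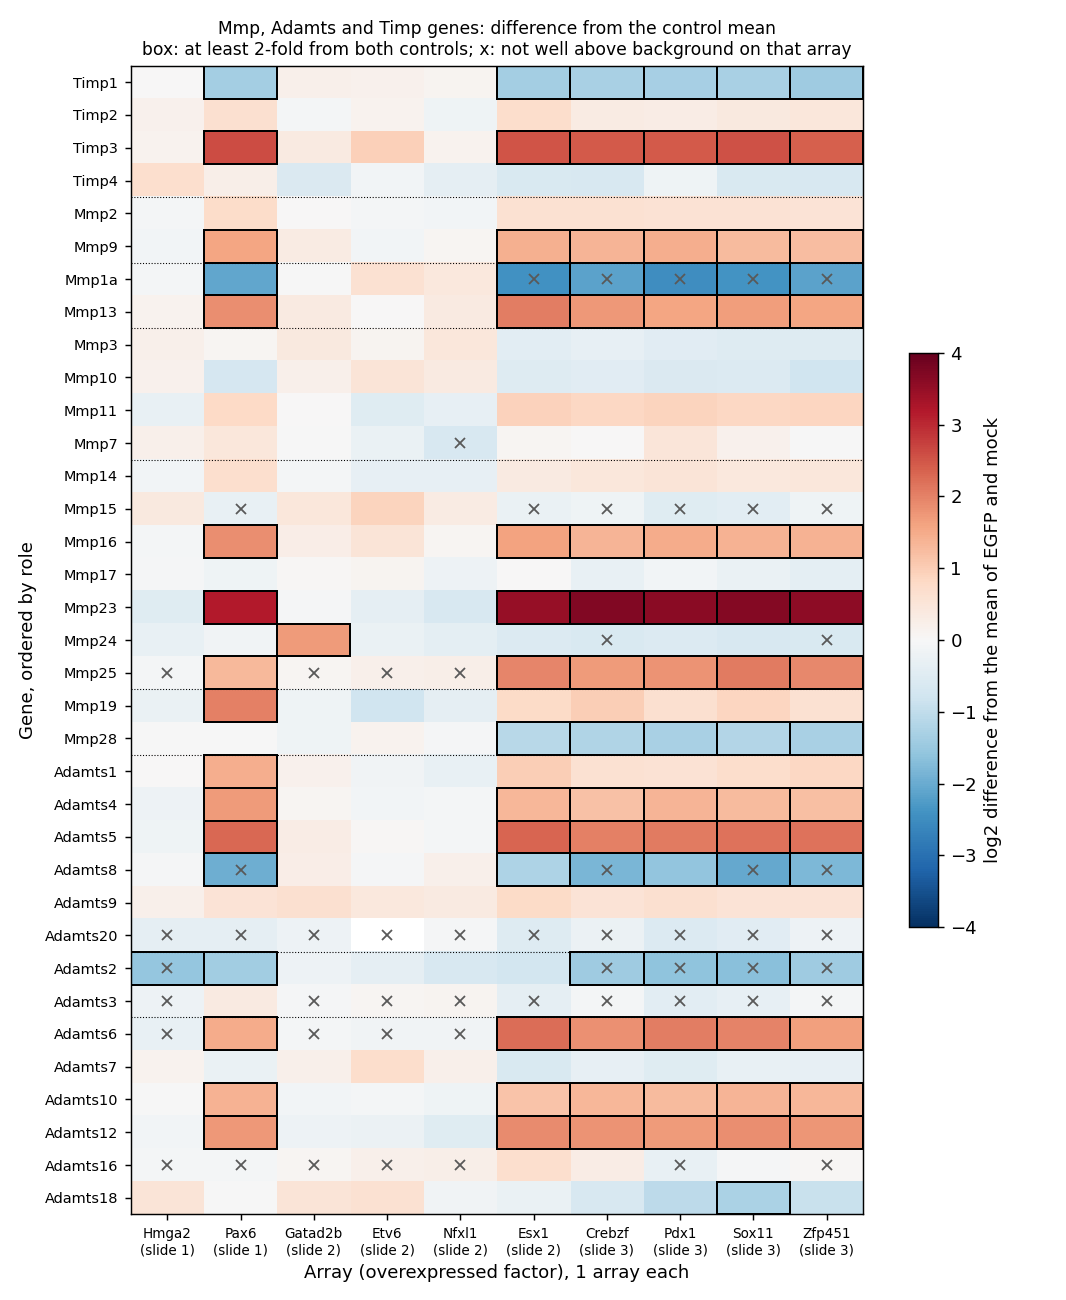
Difference of each tested member from the control mean (log2, colour) on the 10 factor arrays, with calls boxed and a cross where the member was not well above background. Most called members have the same sign on the Crebzf, Esx1, Pax6, Pdx1, Sox11 and Zfp451 arrays, with values near 0 on the other factor arrays.

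The TIMP inhibitors did not move together. Timp1 (X:19307699-19307758 in mm7, the build of the probe positions in the files), a broad and inducible inhibitor, stood at 5.96 on EGFP and 6.06 on mock. It was at 4.65 on Pax6, 4.65 on Esx1, 4.72 on Crebzf, 4.68 on Pdx1, 4.71 on Sox11 and 4.58 on Zfp451, and on Hmga2, Gatad2b, Etv6 and Nfxl1 at 6.01, 6.21, 6.17 and 6.13. On Pax6, Esx1, Crebzf, Pdx1, Sox11 and Zfp451 it was 2.44-fold to 2.69-fold lower than the control mean. All 3 Timp1 probes were called lower on each of these 6 arrays. With quantile normalization the Sox11 call was lost.

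Timp3 (10:85907162-85907221), the inhibitor that stays bound to the matrix, went the other way. Its levels were 0.42 on EGFP and 0.37 on mock. They were 3.0 on Pax6, 2.91 on Esx1, 2.84 on Crebzf, 2.86 on Pdx1, 2.94 on Sox11 and 2.79 on Zfp451, which is 5.25-fold to 6.09-fold above the control mean. Hmga2 (0.55), Gatad2b (0.76) and Nfxl1 (0.53) lay near the controls. Etv6, at 1.36, was 1.95-fold higher and missed the 2-fold rule.

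Timp2, which also helps to activate pro-Mmp2 at the cell surface, was called on no array. It lay between 5.62 and 6.05 on the Crebzf, Esx1, Pax6, Pdx1, Sox11 and Zfp451 arrays, 1.22-fold to 1.65-fold above the control mean, and between 5.15 and 5.51 on the other 6. Every difference from the control mean was under 2-fold. Timp4 was dim, at -5.44 on EGFP and -5.09 on mock. It ranged from -5.92 on Zfp451 to -4.59 on Hmga2, its arrays interleaved, and none of its differences met the rule.

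**Figure D3:**
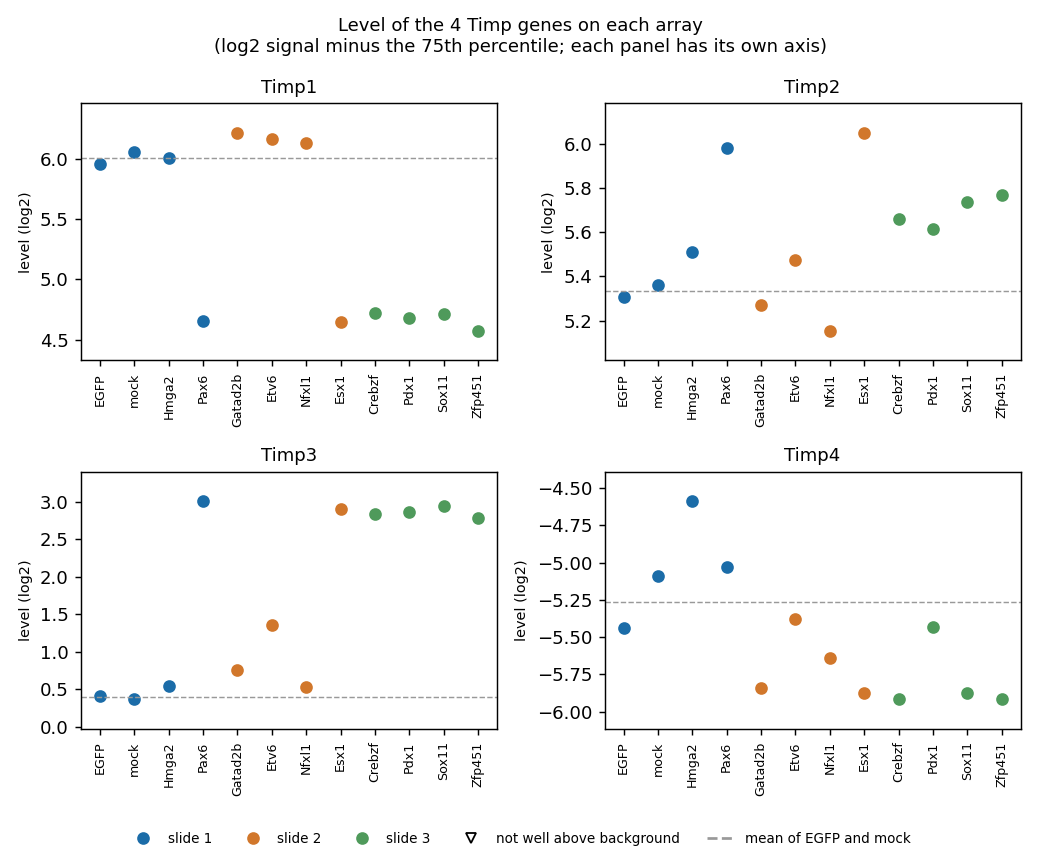
Levels (log2 signal minus the array's 75th percentile) of the 4 Timp genes on the 12 arrays, 1 point an array. Timp1 lies between 4.58 and 4.72 and Timp3 between 2.79 and 3.0 on the Crebzf, Esx1, Pax6, Pdx1, Sox11 and Zfp451 arrays, against 5.96 or more and 1.36 or less on the rest.

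Of the 2 gelatinases, which cut denatured collagen and basement membrane collagen, Mmp9 was called and Mmp2 was not. Mmp9 (2:164695774-164695833) stood at -4.65 on EGFP and -4.36 on mock. It was at -2.92 on Pax6, -3.09 on Esx1, -3.13 on Crebzf, -3.03 on Pdx1, -3.24 on Sox11 and -3.27 on Zfp451, 2.35-fold to 3.0-fold higher, with both of its probes called on each. With quantile normalization its Sox11 and Zfp451 calls were lost. The 4 other factor arrays lay between -4.62 and -4.16, overlapping the controls. Mmp2 (8:91446191-91446250) was at 4.20 to 4.38 on the same 6 arrays and 3.56 to 3.69 on the other 6. Its folds of 1.45 to 1.65 are below the rule.

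The 8 Mmp genes of the chromosome 9 cluster that have member probes divided. Mmp13 (9:7280046-7280105), a collagenase that favours fibrillar type II collagen, was at -0.98 on EGFP and -0.64 on mock. It was at 1.04, 1.24, 0.94, 0.78, 0.85 and 0.77 on Pax6, Esx1, Crebzf, Pdx1, Sox11 and Zfp451, which is 3.0-fold to 4.14-fold higher. On Hmga2, Gatad2b, Etv6 and Nfxl1 it was at -0.67, -0.45, -0.81 and -0.46, within or a little above the range of the controls.

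Mmp1a (9:7474681-7474740), the mouse counterpart of interstitial collagenase, was lower on the same arrays. It stood at -4.57 on EGFP, -4.40 on mock, -4.56 on Hmga2, -4.50 on Gatad2b, -3.86 on Etv6 and -4.08 on Nfxl1. With Pax6 it was at -6.57, 4.25-fold lower, and on the other 5 it was not well above background. The bounds there were at least 5.36-fold lower on Esx1, 4.40 on Crebzf, 5.54 on Pdx1, 5.22 on Sox11 and 4.39 on Zfp451. Its second probe was called lower on Pax6, Esx1, Crebzf, Pdx1 and Zfp451. Whether its probes also bind transcripts of its near-identical neighbour Mmp1b was not tested.

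The stromelysins of the cluster, Mmp3 and Mmp10, which cut proteoglycans and activate other pro-MMPs, were called on no array. Mmp3 (9:7453874-7453933) was at 3.70 on EGFP, 4.03 on mock and 3.93 on Pax6. It was 3.34 to 3.52 on Esx1, Crebzf, Pdx1, Sox11 and Zfp451 and 3.97 to 4.31 on Hmga2, Gatad2b, Etv6 and Nfxl1. Mmp10 (9:7508134-7508193) was at -0.46 to -0.12 on Pax6, Esx1, Crebzf, Pdx1, Sox11 and Zfp451, 1.36-fold to 1.72-fold below the control mean, and at 0.16 to 0.84 on the other 6 arrays. The matrilysin Mmp7 was near background, between -6.07 and -5.32 on the 11 arrays where it was well above it. The neutrophil collagenase Mmp8, the macrophage elastase Mmp12 and the enamel protease Mmp20 are the cluster's other genes with member probes. They were not well above background anywhere.

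**Figure D4:**
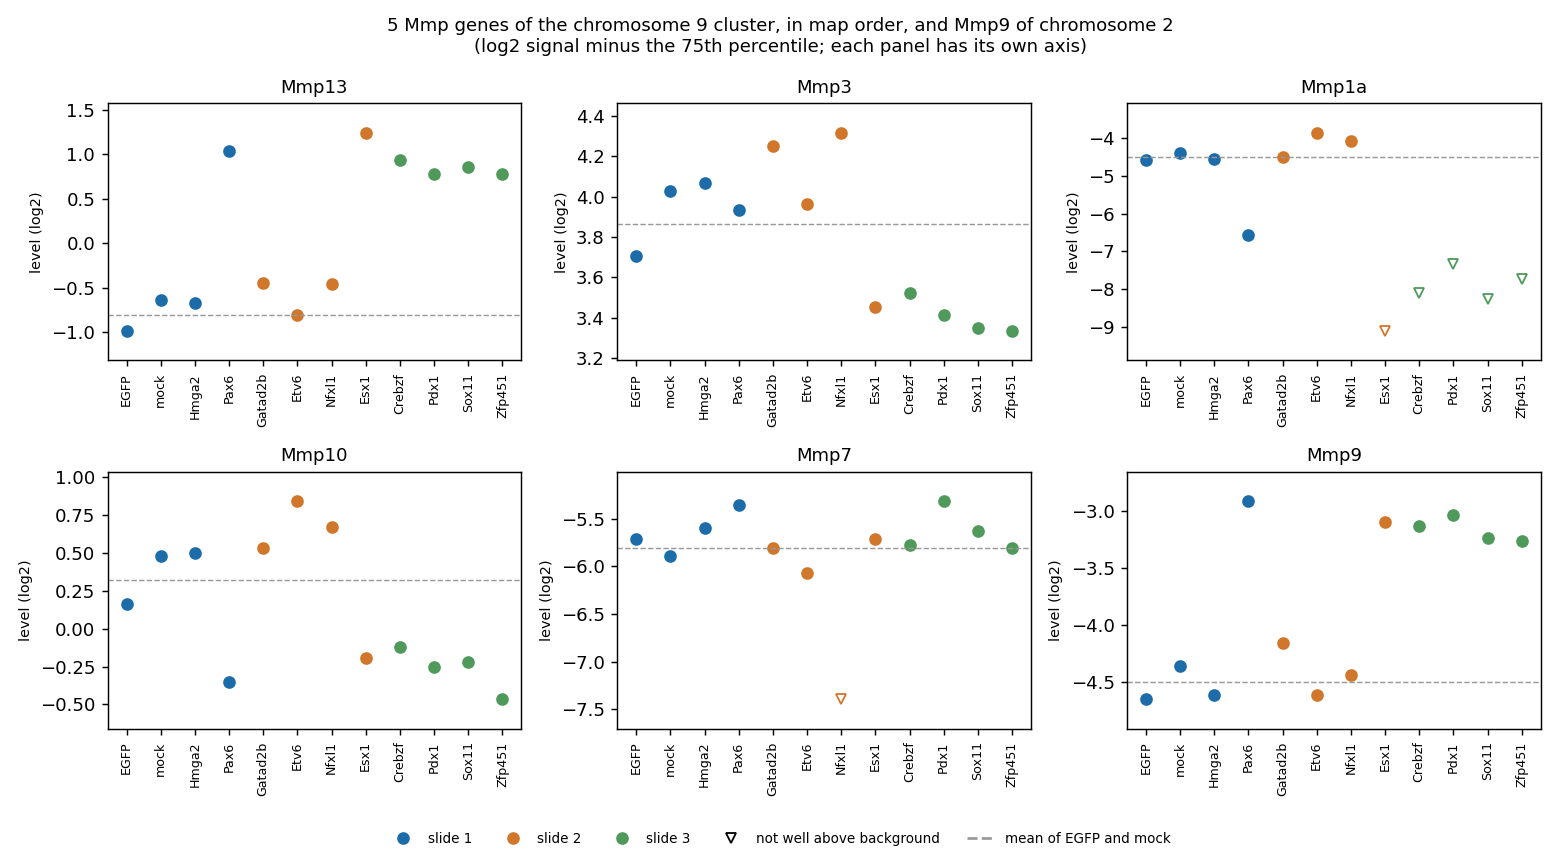
Levels (log2 signal minus the array's 75th percentile) of the 5 chromosome 9 Mmp genes that were well above background, and of Mmp9 of chromosome 2, 1 point an array, with open triangles where the probe was not well above background. Mmp13 and Mmp9 are higher and Mmp1a lower on the Crebzf, Esx1, Pax6, Pdx1, Sox11 and Zfp451 arrays, while Mmp3, Mmp10 and Mmp7 met the 2-fold rule on none.

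Promoters of this cluster are a textbook case of AP-1 control, so the letters before their starts are shown, with Timp1, the 1 inhibitor called lower, for comparison. Sequences are from RefSeq on GRCm38.p6, a later build than that of the probe positions, which found promoters for 28 of the 42 genes (31 promoters). Each line gives the 110 bases just before the start, on the plus strand, at 9:7272404-7272513 for Mmp13, 9:7445712-7445821 for Mmp3, 9:7464031-7464140 for Mmp1a, 9:7502232-7502341 for Mmp10 and X:20870056-20870165 for Timp1. Capitals mark 3 motifs on either strand. The AP-1 motif was searched as TGAGTCA. The letters of the Ets motif were AGGAAG. Those of the TATA box were TATAAA. None of these motifs overlaps another in the lines shown.
Mmp13: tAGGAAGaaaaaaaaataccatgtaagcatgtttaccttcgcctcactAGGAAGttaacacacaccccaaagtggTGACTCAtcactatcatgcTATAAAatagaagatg
Mmp3: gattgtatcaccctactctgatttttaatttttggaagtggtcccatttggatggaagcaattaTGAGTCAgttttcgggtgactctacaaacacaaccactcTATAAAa
Mmp1a: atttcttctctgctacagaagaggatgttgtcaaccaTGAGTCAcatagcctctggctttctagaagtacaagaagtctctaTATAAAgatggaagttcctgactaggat
Mmp10: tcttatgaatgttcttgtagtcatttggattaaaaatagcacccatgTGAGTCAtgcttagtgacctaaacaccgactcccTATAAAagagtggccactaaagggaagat
Timp1: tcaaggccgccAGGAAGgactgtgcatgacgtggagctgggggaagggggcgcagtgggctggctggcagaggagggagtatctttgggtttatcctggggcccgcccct

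The AP-1 letters start at -35 in Mmp13 (on the minus strand), -46 in Mmp3, -73 in Mmp1a and -63 in Mmp10, counted back from the start. Over the 250 bases before a start, 4.46% of 32851 promoters hold these 7 letters on either strand. Among the members 6 of 31 promoters did, and all 6 belong to the chromosome 9 cluster, those of Mmp13, Mmp12, Mmp3, Mmp1a, Mmp10 and Mmp7. No promoter was found for Mmp2, Mmp9, Mmp16, Mmp17, Mmp19, Adamts4, Adamts5, Adamts6, Adamts7, Adamts8, Adamts10, Adamts15, Adamts16 or Adamts19. These genes were not searched. The Ets letters were in 13 of 31 member promoters, against 29.5% of all, and the TATA letters in 8 of 31, against 12.4%. The AP-1 letters thus stand before Mmp13, called higher, before Mmp1a, called lower, and before Mmp3 and Mmp10, called on no array. A match of letters is a description and does not show that a factor binds.

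Among the membrane-anchored enzymes, Mmp16 (4:18044344-18044403), which can activate pro-Mmp2 and is known from the developing brain, was called higher on 6 arrays. It stood at -1.31 on both EGFP and mock. It reached 0.54 on Pax6, 0.30 on Esx1, 0.04 on Crebzf, 0.18 on Pdx1, 0.06 on Sox11 and 0.08 on Zfp451, 2.54-fold to 3.59-fold higher. The other 4 factor arrays lay between -1.39 and -0.79. Its second probe, well above background on 3 arrays, was called on none.

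Mmp25 (17:21809994-21810053), a membrane enzyme held by a lipid anchor and known from neutrophils, was well above background on 6 arrays only. These were Pax6 (-5.36), Esx1 (-4.71), Crebzf (-4.97), Pdx1 (-4.88), Sox11 (-4.60) and Zfp451 (-4.75). The differences from the controls were at least 2.47-fold on Pax6 and at least 3.25-fold to 4.21-fold on the other 5. The Pax6 call was lost with quantile normalization. Mmp14, the main cell-surface activator of pro-Mmp2, was brighter on the same arrays without meeting the rule: 4.12 to 4.44, against 3.44 to 3.77 on the other 6. With quantile normalization both Mmp14 and Mmp2 met it on Pax6.

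Mmp24 (2:155557123-155557186), a membrane enzyme of neurons, was called only on Gatad2b. It stood there at -4.33, against -5.82 on EGFP and -6.23 on mock, 3.25-fold higher, and it was at -6.66 to -6.16 or not well above background on the other arrays. A second Mmp24 probe, well above background on 3 arrays, gave no call. Mmp17 varied least of the 24 members on all 12 arrays, from -3.21 on Zfp451 to -2.69 on Etv6. Mmp15 was well above background on 5 arrays, EGFP (-6.50), Hmga2 (-6.06), Gatad2b (-6.01), Etv6 (-5.58) and Nfxl1 (-6.12), and was not called, though with quantile normalization it met the rule on Etv6.

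Mmp23 (4:154640810-154640869), an atypical MMP that is anchored in the membrane until a proprotein convertase releases it, had the largest differences of all members. Its level was -2.31 on EGFP and -2.43 on mock. It was 0.81 on Pax6, 1.11 on Esx1, 1.33 on Crebzf, 1.23 on Pdx1, 1.31 on Sox11 and 1.20 on Zfp451. These are 9.05-fold, 11.1-fold, 13.0-fold, 12.1-fold, 12.8-fold and 11.9-fold above the control mean. Hmga2 (-2.87), Gatad2b (-2.42), Etv6 (-2.72) and Nfxl1 (-3.01) lay at or below the controls.

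Of the remaining secreted MMPs, 1 was called on Pax6 alone and another on 5 arrays without Pax6. Mmp19 (10:128300933-128300992), a widely expressed enzyme that cuts basement membrane proteins, was at -2.14 on Pax6, against -4.11 on EGFP and -4.17 on mock, 4.01-fold higher. It was -3.53 to -3.16 on Esx1, Crebzf, Pdx1, Sox11 and Zfp451, which is 1.52-fold to 1.97-fold higher and not called, and -4.92 to -4.33 on the other factor arrays. It was also called on Crebzf with mock alone as control and on Esx1 after centring within slides. Mmp28 (11:83531896-83531955), known from epithelia and the nervous system, showed the converse. On Pax6 it was at -2.86, next to EGFP (-2.77) and mock (-2.92), while on Esx1, Crebzf, Pdx1, Sox11 and Zfp451 it was at -3.95, -4.06, -4.14, -4.03 and -4.13, called lower by 2.15-fold to 2.45-fold.

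The second Mmp28 probe, well above background on 4 arrays, was not called. Mmp11, a stromelysin made mostly by stromal cells, was at 2.36 to 2.50 on Pax6, Esx1, Crebzf, Pdx1, Sox11 and Zfp451 and at 1.09 to 1.64 on the rest. Its folds of 1.73 to 1.91 fell short of the rule on all 6, and with quantile normalization or mock alone as control it met the rule on Esx1.

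Several ADAMTS enzymes cut aggrecan and the brain's lecticans, and these members differed in direction. Adamts5 (16:85858359-85858419), the main aggrecanase of mouse cartilage, was at -0.50 on EGFP and -0.78 on mock. It reached 1.67 on Pax6, 1.69 on Esx1, 1.39 on Crebzf, 1.45 on Pdx1, 1.54 on Sox11 and 1.53 on Zfp451, 4.07-fold to 5.03-fold higher, with both probes called on each. The other 4 factor arrays lay between -0.81 and -0.34.

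Adamts4 (1:171229633-171229692), the second classical aggrecanase, was at 0.94 on EGFP and 0.99 on mock. It was at 2.65 on Pax6, 2.28 on Esx1, 2.12 on Crebzf, 2.32 on Pdx1, 2.23 on Sox11 and 2.17 on Zfp451, 2.23-fold to 3.22-fold higher, with Pax6 the highest. The other factor arrays (0.77 to 1.05) surrounded the controls. Adamts1 (16:85790724-85790783), which also cuts versican, was called on Pax6 only: 4.14 against 2.67 on EGFP and 2.68 on mock, 2.76-fold higher. Esx1 (3.66) missed the rule at 1.97-fold, and Crebzf, Pdx1, Sox11 and Zfp451 lay between 3.24 and 3.50. A second Adamts1 probe was called on Pax6 and on Zfp451. With quantile normalization Adamts1 was also called on Esx1 and Zfp451, and after centring within slides on Esx1.

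Adamts8 (9:30862193-30862252), a weaker aggrecanase known as an inhibitor of vessel growth, was lower. It stood at -4.92 on EGFP, -4.70 on mock and -4.87 to -4.54 on Hmga2, Gatad2b, Etv6 and Nfxl1. On Esx1 it was at -6.04, 2.35-fold lower, and on Pdx1 at -6.40, 3.01-fold lower. On Pax6, Crebzf, Sox11 and Zfp451 it was not well above background, at least 3.84-fold, 3.52-fold, 4.17-fold and 3.50-fold lower. Its other 2 probes, well above background on 0 and 2 arrays, gave no call.

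Adamts9, which cuts versican and aggrecan, was called on no array. It was at 0.04 on EGFP and -0.00 on mock and between 0.22 and 0.77 on all 10 factor arrays. Another of its probes differed from the control mean by -0.63 to -0.16 (log2) on Hmga2, Gatad2b, Etv6 and Nfxl1. Adamts20, of the same branch, was well above background on EGFP only (-6.25), with 1 outlier spot left out on Etv6.

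The procollagen processing enzymes were near background. Adamts2 (11:50733443-50733502), which removes the amino-terminal propeptide of fibrillar collagens, was at -5.17 on EGFP and -5.25 on mock. It was called lower on Pax6 (-6.61, 2.64-fold) and, without being well above background there, on Crebzf, Pdx1, Sox11, Zfp451 and Hmga2, at least 2.67-fold, 3.06-fold, 3.16-fold, 2.66-fold and 2.90-fold lower. Esx1 (-5.94) was not called. Another of its 4 probes was well above background on Hmga2 alone and was called higher there, by 2.66 (log2), so the Adamts2 probes oppose each other on that array. Adamts3, its relative, was well above background on Pax6 only (-6.20).

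Adamts12 (15:11406886-11406945), which can cut the cartilage protein COMP, was at -3.77 on EGFP and -3.80 on mock. It was at -2.05 on Pax6, -1.90 on Esx1, -1.98 on Crebzf, -2.08 on Pdx1, -1.92 on Sox11 and -2.03 on Zfp451, 3.27-fold to 3.70-fold higher. The other factor arrays, -4.29 to -3.91, lay below both controls. Its 2 dimmer probes, well above background on 3 and 6 arrays, were not called. Adamts7 (9:89828591-89828650), the closest relative of Adamts12, was called on no array: 0.89 to 1.26 on those 6 arrays, 1.48 on EGFP, 1.54 on mock and 1.64 to 2.21 on the other factor arrays. Its second probe, also not called, had another order. On Gatad2b (-0.48) and Nfxl1 (-0.44) that probe lay below EGFP (-0.12), mock (0.03) and Pax6 (-0.25).

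Adamts10 (17:31628618-31628677), a fibrillin-binding member, was at -1.09 on EGFP and -1.12 on mock. It was between 0.05 (Esx1) and 0.28 (Pax6) on the Crebzf, Esx1, Pax6, Pdx1, Sox11 and Zfp451 arrays, 2.22-fold to 2.61-fold higher, and between -1.29 and -1.12 on the other factor arrays. Of its 3 probes, 2 were called on all 6 and the third on none. Adamts6 (13:101633753-101633812), its closest relative, was at -4.83 on Pax6, -4.08 on Esx1, -4.50 on Crebzf, -4.28 on Pdx1, -4.34 on Sox11 and -4.68 on Zfp451. It was -6.29 on EGFP and not well above background on the other 5 arrays, and its differences were at least 2.81-fold to 4.71-fold.

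Adamts18 (8:112297840-112297899), whose substrates are little known, was called on 1 array. On Sox11 it was at -6.56, 2.42-fold below the control mean, with EGFP at -5.44 and mock at -5.14. Pdx1, at -6.34, was 2.07-fold below the mean but not 2-fold below both controls, and the other factor arrays ranged from -6.19 to -4.68. The Sox11 call was lost with quantile normalization, and with mock alone as control Pdx1 and Zfp451 were called too. Adamts16 was well above background on Esx1 (-5.99), Crebzf (-6.37) and Sox11 (-6.70) and was not called.

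Pairs of arrays on 1 slide give differences into which the slide cannot enter. On slide 1, 14 members were at least 2-fold higher and 3 lower on Pax6 than on Hmga2, where 21.1% of all genes were apart. Against EGFP and against mock the counts were 13 and 4, with 19.3% and 20.5% of genes apart. On slide 2, Esx1 had 11 members higher and 4 lower than Gatad2b (20.5% of genes apart), 14 and 7 against Etv6 (20.0%) and 14 and 4 against Nfxl1 (21.0%). Mmp23 was 12.8-fold higher on Pax6 than on Hmga2 and 11.5-fold, 14.1-fold and 17.3-fold higher on Esx1 than on Gatad2b, Etv6 and Nfxl1. Timp3 was 5.47-fold higher on Pax6 than on Hmga2 and 5.20-fold higher on Esx1 than on Nfxl1, and 2.93-fold higher on Esx1 than on Etv6. The Mmp23 folds are all above those of the same 2 arrays against the control mean.

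Arrays near each other hardly differed in the members. All 6 pairs within slide 3 had 0 members 2-fold apart, with 1.12% of all genes apart between Crebzf and Pdx1, 0.868% between Crebzf and Sox11, 0.925% between Pdx1 and Sox11, 1.15% between Pdx1 and Zfp451 and 0.725% in the remaining pairs. EGFP and mock had 0 (1.36%), as did Etv6 and Nfxl1 (1.87%). Hmga2 differed from EGFP and from mock at 1 member, Adamts2 (2.22% and 2.27% of genes). Gatad2b differed from Etv6 (2.34%) and from Nfxl1 (1.85%) at 1 member, Mmp24, 3.89-fold and 4.25-fold higher on Gatad2b.

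Other genes of the pathway were taken from lists chosen for their function. On the Crebzf, Esx1, Pax6, Pdx1, Sox11 and Zfp451 arrays 9.59% to 10.7% of all genes were higher and 6.28% to 7.42% lower. All 6 ADAMTS-like genes, which encode matrix glycoproteins without a protease domain, were tested: 6 were called higher on Pax6, 4 each on Esx1, Crebzf, Pdx1 and Sox11 and 5 on Zfp451, and none lower. Of the 6 on Pax6, 1 was well above background on neither control. Adamtsl1 was 3.49-fold to 4.20-fold higher, Adamtsl2 2.94-fold to 5.07-fold and Adamtsl4 3.95-fold to 5.13-fold on these 6 arrays. Of 8 MMP activators, inhibitors and clearance genes tested, Reck was the 1 called higher on the same 6. Reck, a membrane-anchored inhibitor of Mmp2, Mmp9 and Mmp14, was 5.49-fold higher on Pax6 and 10.1-fold to 12.9-fold on the others. Pcsk6, a proprotein convertase, was lower on Pax6 (3.60-fold), Esx1 (2.26-fold) and Sox11 (2.39-fold).

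In the plasminogen system, which activates several pro-MMPs, 8 genes were tested and 2 were called higher on each of the 6 arrays, with 2 to 4 lower. Of all genes, 9.59% to 10.7% were higher and 6.28% to 7.42% lower on these arrays. Plau, the urokinase protease, was 4.06-fold to 7.66-fold lower, and its receptor Plaur 3.65-fold to 4.09-fold lower. Serpine2, a serpin that inhibits urokinase and thrombin, was 3.10-fold to 4.48-fold higher, and the neuronal serpin Serpini1 2.65-fold to 3.94-fold higher. Serpinb2, which also inhibits urokinase, was called lower on Pax6, Esx1, Pdx1 and Sox11, at least 2.67-fold on Sox11. Of 6 astacin proteases and enhancers tested, 1 or 2 were higher and at most 1 lower, and Tll1, a procollagen C-proteinase, was 5.55-fold to 8.56-fold higher on all 6.

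Of 11 AP-1 and Ets genes tested, 2 were higher on Pax6, 1 on each of Esx1, Crebzf, Pdx1, Sox11 and Zfp451, and 3 lower on each of the 6. Fos was 38.2-fold higher on Pax6 and 4.74-fold to 7.14-fold higher on the others, and Fosb was the second higher gene on Pax6. Fosl1 was 7.21-fold to 10.1-fold lower, Jun 3.52-fold to 4.01-fold lower and Etv4, an Ets factor, 2.32-fold to 3.05-fold lower. Of 9 ADAM proteases tested, 1 was lower on Pax6 (Adam12, 2.53-fold), 1 higher on Esx1 and on Sox11 (Adam23), and none on Crebzf, Pdx1 or Zfp451. Of 7 genes for link proteins and for lecticans, the substrates of the aggrecanases, 1 (the link protein gene Hapln1) was higher on Pdx1 and on Zfp451. None was higher on the other arrays, and no lectican gene was called on any array. With 9.59% to 10.7% of all genes higher on the 6 arrays, 1 gene higher in a list of 7 to 11 is near that share. The share lower was 6.28% to 7.42%. No gene of these lists was called on Hmga2, Gatad2b, Etv6 or Nfxl1, where 0.300% to 1.17% of all genes were called in each direction.

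**Figure D5:**
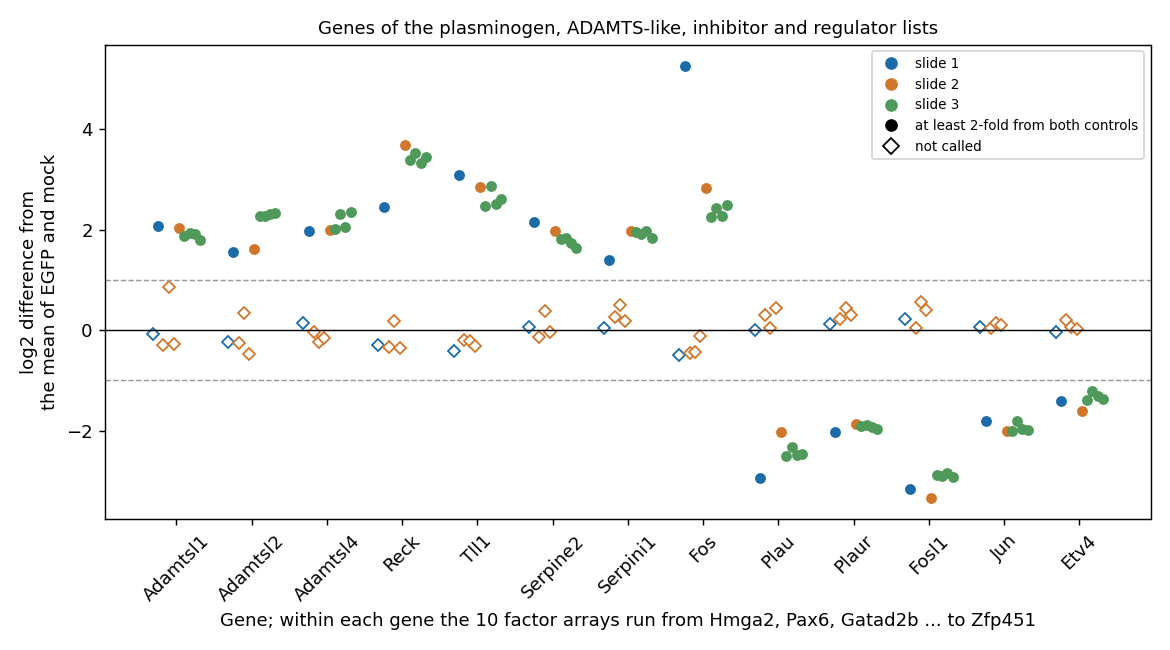
Difference from the control mean (log2) of 13 related genes on the 10 factor arrays, filled where called and open where not, coloured by slide. Adamtsl1, Reck, Tll1 and Fos are higher and Plau, Plaur, Fosl1 and Jun lower on the Crebzf, Esx1, Pax6, Pdx1, Sox11 and Zfp451 arrays.

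Marker lists of other cell types did not all move alike. The fibroblast list, whose cells are rich in MMPs and TIMPs, had 10 of 10 genes tested and 4 to 7 called higher on the Crebzf, Esx1, Pax6, Pdx1, Sox11 and Zfp451 arrays. Of all genes, 9.59% to 10.7% were higher there. The sum of its levels on the linear scale, in units of the 75th percentile, was 229 to 246 on these 6 and 96.3 to 107 on the other 6. The astrocyte sum was 15.6 to 19.4 against 4.52 to 5.69, and that list's median difference was 0.87 to 1.37 (log2) on the 6. Apoe was 5.30-fold to 9.57-fold higher on the 6 arrays and S100b 2.40-fold to 3.77-fold, while the astrocyte filament gene Gfap was well above background on EGFP only and the water channel gene Aqp4 on EGFP and Hmga2 only. The neuron sum was 1.64 to 1.75 against 0.912 to 1.05, and its brightest gene on the 6, Map2, weighed most in it. That list's median difference was 0.42 to 0.87 (log2) on the 6. Syt1 was 5.24-fold to 8.42-fold and Snap25 5.44-fold to 9.32-fold higher on the 6, at dimmer levels. Map2 was 1.98-fold to 2.44-fold higher there, called on Pax6, Esx1 and Pdx1. Tubb3 was 1.08-fold to 1.54-fold lower on the 6, without a call. Dcx was well above background on EGFP only, and Rbfox3 was called on Gatad2b alone (2.99-fold higher). Of 8 microglia and macrophage genes, Itgam, Adgre1 and Tyrobp were not well above background on any array and 5 were tested, with a sum of 0.192 to 0.240 on the 6 arrays and 0.148 to 0.255 on the others. Aif1 was called higher on the 6, with lower bounds of 2.71-fold to 3.29-fold. Cx3cr1 was called higher on Pdx1, by at least 5.01-fold, and on Nfxl1, by at least 11.1-fold, and Cd68 was well above background on all 12 without a call. Of 6 endothelial genes, Pecam1, Cdh5 and Tie1 were not well above background on any array and 3 were tested, with a sum of 0.492 to 0.707 against 0.933 to 1.05. Tek and Flt1 were well above background on all 12, and Flt1 was called lower on Pax6 (2.11-fold). The oligodendrocyte lineage sum was 0.959 on Pax6 and 1.33 to 1.39 on the other 5, against 0.724 to 1.05. Pdgfra was called higher on the 6 (3.27-fold to 5.13-fold) and on Etv6 (2.25-fold). Sox10 was called lower on Crebzf (2.33-fold) and Zfp451 (2.18-fold), and Olig2 higher on Crebzf (at least 2.83-fold). The pluripotent cell sum was 0.535 to 0.666 against 0.355 to 0.399, without a call. The part of these cell types in the results was not tested, and in bulk RNA fewer cells of a type and less RNA per cell cannot be told apart.

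The background correction and the choice of probe bear on the dim members. With normexp background correction no Mmp9, Mmp25, Mmp28, Mmp1a, Mmp24, Adamts2, Adamts6, Adamts8 or Adamts18 call was left, with each difference of the same sign as before. With the mean of all probes no Adamts12, Adamts2, Adamts18, Mmp24 or Mmp28 call was left, and 1 of 6 Adamts8 (Sox11), 1 of 6 Mmp16 (Pax6) and 2 of 6 Adamts10 calls (Pax6 and Zfp451). Calls of Timp1 and Adamts5 on the Crebzf, Esx1, Pax6, Pdx1, Sox11 and Zfp451 arrays met the rule under both. Those of Timp3, Mmp13 and Mmp23 on these arrays met it under normexp. These genes have 1 probe each, so the mean of all probes could not change their calls. Centring each gene within slides left no call on Crebzf, Pdx1, Sox11 or Zfp451, since it removes what the arrays of slide 3 share.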

How the data were processed

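Total RNA of 12 cultures was hybridised to 12 arrays on 3 slides, labelling starting from 0.25 µg of RNA per the labels' protocols. The deposited files come from Agilent Feature Extraction, version 10.7.3.1 per the file headers, and the value used is its processed intensity, background-subtracted, on a linear scale. The deposited value table equals that column, within a relative difference of 0.0001, on 100% of spots of each array, so it carries no further scaling. Any further processing by the authors: not given in the sources used here. Spots flagged as outliers were left out, repeated spots averaged, and each array's log2 values set relative to its 75th percentile. Values below an array's lowest well-above-background level (-6.96 to -6.45) were raised to it before differences were taken. Probe positions are those of mm7 in the files, with no annotation of that build at hand, so exon or UTR is not given. The members are named as the files name them, and other genes through RefSeq (GRCm38.p6).

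A call needed a 2-fold difference from EGFP and from mock. With 1 array a group there is no replicate and no p-value, and the number of arrays limits the precision. Percentages of all genes are over the 20968 genes tested. Every member is named, and members called on an array, the 4 Timp genes and those 2-fold apart between arrays could get values on every array. From each related list up to 3 called genes in each direction, those with the largest difference from the nearer control, could be named. Members, lists and rules were chosen with earlier results of these data known. The calling rule was tested on simulated data. Alternatives were quantile normalization, normexp background correction (offset 50, limma 3.58.1 in R 4.3.3), averaging a gene's probes, no floor, a restriction to genes above background on every array, centring within slides, and each control alone. Other steps used Python 3.11.15 with numpy 2.4.6 and pandas 2.3.3.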

Additional observations from a re-analysis of the deposited data

How the results depend on the processing

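The counts of called members depended most on the treatment of dim probes and of slides. With normexp 11 of 35 members (10 higher, 1 lower) were called on Pax6, 9 (8 and 1) on each of Esx1, Crebzf, Pdx1, Sox11 and Zfp451, and 0 on Hmga2 and on Gatad2b. Of all 20968 genes tested, 1186 were then higher and 904 lower on Pax6. On Esx1, Crebzf, Pdx1, Sox11 and Zfp451, 1134 to 1224 were higher and 695 to 929 lower. Hmga2 had 11 and 4, and Gatad2b 13 and 61. With the mean of all probes 10 members were called on each of Esx1, Crebzf and Pdx1, 11 on Sox11, and 0 on Hmga2 and on Gatad2b. Of the 20970 genes tested in that setting, 1726 to 1826 were higher and 1128 to 1412 lower on Esx1, Crebzf, Pdx1 and Sox11. Hmga2 had 82 and 84, and Gatad2b 118 and 191. With the test restricted to genes on all 12 arrays 0 members were called on Hmga2 and on Gatad2b. Of those 16073 genes, 27 were higher and 49 lower on Hmga2, and 13 and 154 on Gatad2b. Quantile normalization gave 1 member call on Etv6 (Mmp15) and no floor 1 on Nfxl1 (Mmp7). Of all 20968 genes, 303 were higher and 128 lower on Etv6 in the first setting, and 103 and 518 on Nfxl1 in the second. Centring within slides left 0 members on Crebzf, Pdx1, Sox11 and Zfp451, where 49 to 97 of all genes were higher and 11 to 22 lower. The mean of slide 1 holds the Pax6 array, so centred values carry part of its difference.

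With either control left out the counts of members were 17 on Pax6, 15 to 16 on Esx1, 16 to 17 on Crebzf, Pdx1 and Zfp451, 17 on Sox11, 1 on Hmga2 and on Gatad2b, and 0 on Etv6 and on Nfxl1. Of all 20968 genes, 2158 to 2606 were then higher on Pax6, Esx1, Crebzf, Pdx1, Sox11 and Zfp451, and 1579 to 2082 lower. On the remaining factor arrays 84 to 505 were called in each direction. Of 99 called differences, 94 still met the rule with quantile normalization, 66 with the mean of all probes, 56 with normexp and 33 after centring. With each control alone and with no floor all 99 did, but this was fixed in advance. The rule already asks for both controls, and removing the floor cannot shrink a called difference. Centring cannot change the Pax6 and Hmga2 calls, since both controls share their slide, nor the mean of all probes a gene with 1 probe. The 68 that fall on genes on all 12 arrays are the same calls under that restriction, which changes only the genes counted. The direction turned for Adamts2 on Hmga2 with the mean of all probes (0.24), and after centring for Mmp28 on Crebzf (0.0197) and Sox11 (0.0532). Their causes were not tested. Quantile normalization moved the median of all genes by over 0.1 on Pdx1 (from -0.20 to -0.04) and on Sox11 (from -0.20 to -0.02). No paired analysis was possible because each group holds 1 array. Near background the signal limits what can be seen, and a member not well above background is not shown to be absent.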
